A study of Bos taurus with 5 samples.

Results

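The immediate-early response genes described here are EGR1, ATF3 and FOSB. They were chosen by name: 10 symbols were searched in the table (FOS, FOSB, FOSL2, JUN, JUNB, JUND, EGR1, ATF3, IER2 and IER5), and these 3 had rows, with 4 transcripts between them, out of 9022 genes and 13391 transcripts in all. The other 7 symbols were not analysed here. The samples came from longissimus dorsi, a long back muscle, of 5 cattle of the Jiaxian Red breed, 18 months old. A single library was made per animal, no treatment is labelled, and all libraries belong to 1 group, so no condition was compared with another. The stated purpose was to find candidate genes for muscle development.

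Immediate-early genes are switched on within minutes of a stimulus from proteins the cell already holds, and their messages are short-lived. Growth factor receptors and the MAP kinases activate serum response factor with its ETS partners, and CREB, at the promoters of these genes. Their products are transcription factors that start a later wave of expression, and in skeletal muscle contraction, stretch and injury are known stimuli. EGR1 is a zinc finger factor of that first wave. FOSB is a FOS-family protein that pairs with JUN proteins to form AP-1. ATF3 is a related leucine zipper factor best known as a stress-response gene.

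The authors deposited FPKM, in which fragment numbers are divided by transcript length and by the size of the library. A gene value here is the sum of its transcripts in the table. Logarithms were taken of FPKM + 1, and a gene with a mean of at least 1 FPKM was called detected, which held for 6136 genes. All 3 members passed this limit. Read depth was unknown because the table gave no counts. The summed FPKM per library ran from 193706 to 223251 and was lowest in library 1, the library in which all 3 members were highest. The myofibre genes ACTA1, MYLPF, MYH7 and TNNT3, the most abundant of 7 such markers with rows, averaged 5134, 2608, 3329 and 2252 FPKM. On the same list CKM averaged 16.2 FPKM and MB ran from 106 to 766 FPKM. Genes that define the labelled tissue were thus abundant, though not every listed marker was. No marker of fat cells was analysed here. In whole muscle, fewer cells of a type and less RNA per cell cannot be told apart. Nothing in the labels says how the animals were sampled beyond tissue, breed and age, and with 1 library per animal the spread between libraries holds both biological and technical variation.

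EGR1 was the most abundant of the 3 and was far higher in 1 animal than in the rest. Libraries 1 to 5 had 28.1, 7.88, 7.24, 8.19 and 11.3 FPKM, in that order. Library 1 was therefore 2.48 times the next highest library, while libraries 2, 3 and 4 lay within about 1 FPKM of each other. The mean was 12.6 ± 8.84 FPKM (SD, n = 5), and 8.66 ± 1.82 FPKM without library 1 (SD, n = 4). The highest library was 3.88 times the lowest with all 5 animals and 1.56 times without library 1. The gene, ENSBTAG00000010069, had a single listed transcript, EGR1-201, at positions 49825961 to 49830306 of chromosome 7 as deposited. No build is claimed for these coordinates, since the submitters' processing notes name UMD3.1 while all 3 members overlapped their positions in the RefSeq table of another assembly, ARS-UCD2.0.

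FOSB had a similar profile at a lower level. Libraries 1 to 5 had 9.50, 1.73, 2.54, 3.02 and 4.54 FPKM, and the mean was 4.27 ± 3.10 FPKM (SD, n = 5). Library 1 was 2.09 times the next, and the highest library 5.49 times the lowest. As for EGR1, library 5 came next after library 1 and library 4 after it, and only the order of libraries 2 and 3 differed. Without library 1 the mean was 2.96 ± 1.18 FPKM (SD, n = 4) and the ratio of highest to lowest 2.62.

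ATF3 followed another order. Libraries 1 and 3 were highest, with 8.28 and 7.20 FPKM, and libraries 5 and 2 lowest, with 3.58 and 3.45 FPKM. Library 4, at 5.64 FPKM, lay close to the mean. The mean was 5.63 ± 2.15 FPKM (SD, n = 5), and the highest library was 2.40 times the lowest. Library 1 was the highest again but only 1.15 times the next. Library 5, which came second for EGR1 and FOSB, was next to lowest for ATF3, and library 3, the lowest for EGR1, was second for ATF3. The gene, ENSBTAG00000008545, had 1 listed transcript, ATF3-201, on chromosome 16 from 70924511 to 70937490.

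**Figure D1:**
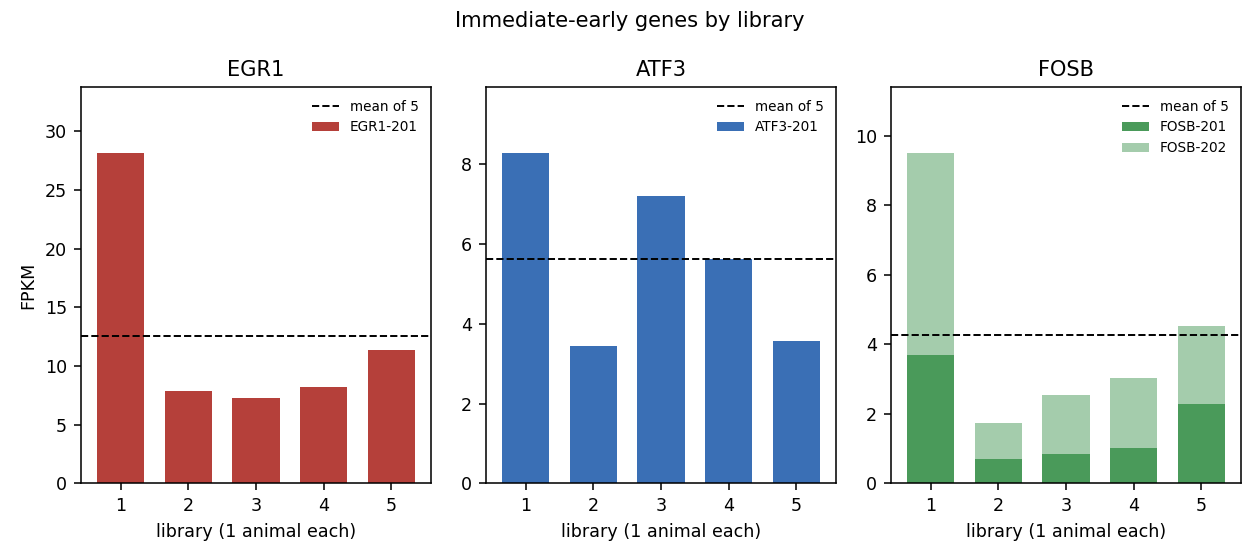
FPKM (vertical axis, from 0, with its own scale in each panel) of EGR1, ATF3 and FOSB in libraries 1 to 5, 1 animal each; each bar is 1 library, the shades of FOSB are its 2 transcripts, and the dashed line is the mean of 5. EGR1 stands at 28.1 FPKM in library 1 and at 11.3 or below elsewhere, and FOSB at 9.50 and at 4.54 or below, while ATF3 is close to its library 1 value in library 3.

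Both FOSB transcripts contributed to its profile. FOSB-201 spans 53074888 to 53081288 on chromosome 18, and FOSB-202 lies inside it, from 53074913 to 53079425. FOSB is known to make a full-length protein and a truncated one by alternative splicing. Which protein each listed transcript encodes was not given in the sources used here. FOSB-201 was at 3.69, 0.690, 0.841, 1.01 and 2.29 FPKM in libraries 1 to 5, and FOSB-202 at 5.81, 1.04, 1.70, 2.01 and 2.25 FPKM. FOSB-202 made up 60.9% ± 7.01 of the gene's FPKM (SD, n = 5), from 60.1% to 66.9% in libraries 1 to 4 and 49.6% in library 5. The transcripts were thus close to equal in library 5, where both were above their values in libraries 2, 3 and 4. Reads from the shared interval can be assigned to either transcript, so the split is an estimate and the gene sum is the firmer value.

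In order of mean level the genes ran EGR1, ATF3, FOSB, and the last neighbours in this order were not separated by their gene sums. EGR1 was higher than FOSB in 5 of 5 animals, by 2.49 to 4.55 times in FPKM. It was higher than ATF3 in 5 of 5 as well, but the ratio ran from 1.01 in library 3 to 3.40 in library 1, so that in library 3 the values were nearly equal. ATF3 exceeded FOSB in 3 animals, and FOSB exceeded ATF3 in libraries 1 and 5. The mean log2 ratio, on the FPKM + 1 scale, was 1.35 ± 0.23 for EGR1 over FOSB, 0.91 ± 0.68 for EGR1 over ATF3 and 0.44 ± 0.64 for ATF3 over FOSB (SD, n = 5). The first ratio had the smallest SD of the 3, on a scale where the added 1 FPKM compresses the low FOSB values. With the more abundant transcript of FOSB alone in place of the gene sum, ATF3 was the higher in 5 of 5 animals, by 0.96 on the same scale (exact permutation p = 0.0625), so the order of these genes within an animal depends on the summing of transcripts.

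For the 3 pairs, an exact permutation test that flips the signs of the log2 ratios (two-sided) gave p = 0.0625 for each EGR1 pair, the smallest value 5 animals allow, and 0.25 for ATF3 over FOSB. After Benjamini-Hochberg adjustment these were 0.0938, 0.0938 and 0.25. In limma's moderated test, fitted to the ratio of every other detected gene to 1 member and adjusted over 6135 genes, the adjusted p was 0.00148 for EGR1 against FOSB, 0.00289 for EGR1 against ATF3 and 0.332 for ATF3 against FOSB. The member in the denominator is shared by all the ratios of a fit, so its own spread enters every one of them and the tests are not independent. The standard error was 0.386 for both ratios over FOSB, although their SDs were 0.23 and 0.64. These p-values thus rest on a spread pooled over genes that share the same libraries, and do not reflect each pair's own spread.

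Among the detected genes of the deposited table, EGR1 was of upper-middle level by mean FPKM, and ATF3 and FOSB lay below the middle. EGR1 ranked 1798 by mean FPKM among the 6136 detected genes, ATF3 3323 and FOSB 3866. By limma (adjusted p under 0.05) 17.6% of the other detected genes were higher than EGR1 and 47.6% lower. For ATF3 38.7% were higher and 29.2% lower, and for FOSB 44.1% higher and 12.4% lower. The rank depended on the animal. EGR1 exceeded 87.9% of detected genes in library 1 and 53.9% to 67.6% in the others. FOSB exceeded 63.3% in library 1 and 14.5% to 39.5% in the others. ATF3 moved less, from 31.8% in library 2 to 59.1% in library 1.

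The members varied more between animals than most genes did. The SD of log2(FPKM + 1) over the 5 libraries was 0.75 for EGR1, 0.75 for FOSB and 0.48 for ATF3, against a median of 0.25 over all detected genes. EGR1 varied more than 92.9% of detected genes, FOSB more than 92.7% and ATF3 more than 83.0%. Library 1 set this for EGR1: without it EGR1 varied more than 57.6% of genes, FOSB more than 81.1% and ATF3 more than 81.4%. Among detected genes 0.88% had library 1 at 2 or more times every other library, a limit chosen after the values were seen, and EGR1 and FOSB were both among them. Library 1 was the highest of the 5 for 24.4% of detected genes, and library 1 first with library 5 second, the order of EGR1 and FOSB, for 5.56%.

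A gap ratio, the distance of an end value to its neighbour over the whole range, was used to mark a library standing apart, with Dixon's limit of 0.71 for 5 values. Such a library was found for 6.76% of detected genes, and library 1 was the one apart for 2.25%. EGR1 passed, at 0.805 for library 1. FOSB, at 0.638, and ATF3, at 0.223, did not. On the log2 scale, where 7.37% of detected genes passed, the EGR1 ratio was 0.682, under the limit, so the call depends on the scale. On the linear scale it held in TPM (0.817) and with size factors (0.793). Without library 1, 2 or 4 the FPKM ratio of EGR1 fell short of the higher limit that applies to 4 values.

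**Figure D2:**
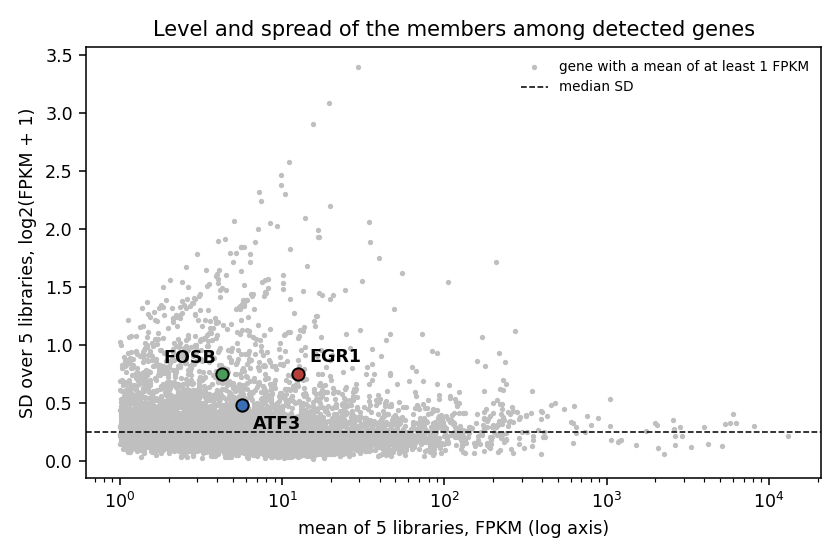
Mean FPKM of 5 libraries (horizontal, log axis) against the SD over the libraries of log2(FPKM + 1) (vertical) for the 6136 detected genes in grey, with the 3 members in colour; the dashed line is the median SD. EGR1 and FOSB, each at an SD of 0.75, and ATF3, at 0.48, lie above the median of 0.25, and some detected genes vary more. EGR1 varies more than 92.9% of detected genes, FOSB more than 92.7% and ATF3 more than 83.0%.

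The genes of most similar profile were sought among detected genes with a symbol and an SD of at least 0.5 times that of the member. Likeness was the root mean square difference of the centred log2 values over 5 libraries, a description with no test. For EGR1 the 5 nearest of 1238 genes were BRPF3 (0.14), MTSS1 (0.17), AQP4 (0.20), FOSB (0.21) and ECH1 (0.22). For FOSB the 5 nearest of 1261 were MTSS1 (0.06), RGS1 (0.20), EGR1 (0.21), ISYNA1 (0.21) and PLEKHG5 (0.22). EGR1 and FOSB were thus each among the other's nearest genes. ATF3 was not near either, with a difference of 0.61 from EGR1 and 0.57 from FOSB.

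RGS1, a regulator of G-protein signalling found in leukocytes, was at 4.26, 0.812, 1.23, 1.80 and 3.17 FPKM in libraries 1 to 5, the same order of animals as FOSB. AQP4, the water channel of fast muscle fibres, was at 5.60 FPKM in library 1 and between 0.878 and 1.03 in the others. BRPF3, MTSS1, ECH1 and PLEKHG5 averaged 1.10 to 1.32 FPKM, where the added 1 FPKM compresses differences. Without library 1, 0 of the 5 genes nearest EGR1 stayed among its 5 nearest, and 2 of 5 for FOSB, MTSS1 and ISYNA1. The candidates changed as well when library 1 was left out, from 1238 to 4190 for EGR1 and from 1261 to 2660 for FOSB. With the candidates kept as they were, the overlaps were again 0 of 5 and 2 of 5.

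The nearest genes of ATF3 were TAGLN (0.09), CRIP1 (0.10), CNTROB (0.11), ACTA2 (0.11) and ND6 (0.11), out of 2653. TAGLN and ACTA2 encode transgelin and smooth muscle actin, proteins of the contractile apparatus of smooth muscle, and are markers of vessel walls. TAGLN was at 28.3, 15.1, 26.7, 23.5 and 13.6 FPKM in libraries 1 to 5, and ACTA2 at 50.2, 24.7, 40.9, 34.8 and 20.1. Both, like ATF3, were highest in library 1, followed by libraries 3 and 4, and were lowest in libraries 2 and 5. Of the 5 smooth muscle and pericyte markers, all with rows, 4 were detected, and their summed FPKM ran from 36.5 in library 5 to 88.7 in library 1. RGS5, which marks pericytes, averaged under 1 FPKM, and PDGFRB was highest in library 2. The part of vessel wall cells in the ATF3 values was not tested. Without library 1, CRIP1 was the only gene of these 5 that stayed among the 5 nearest.

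**Figure D3:**
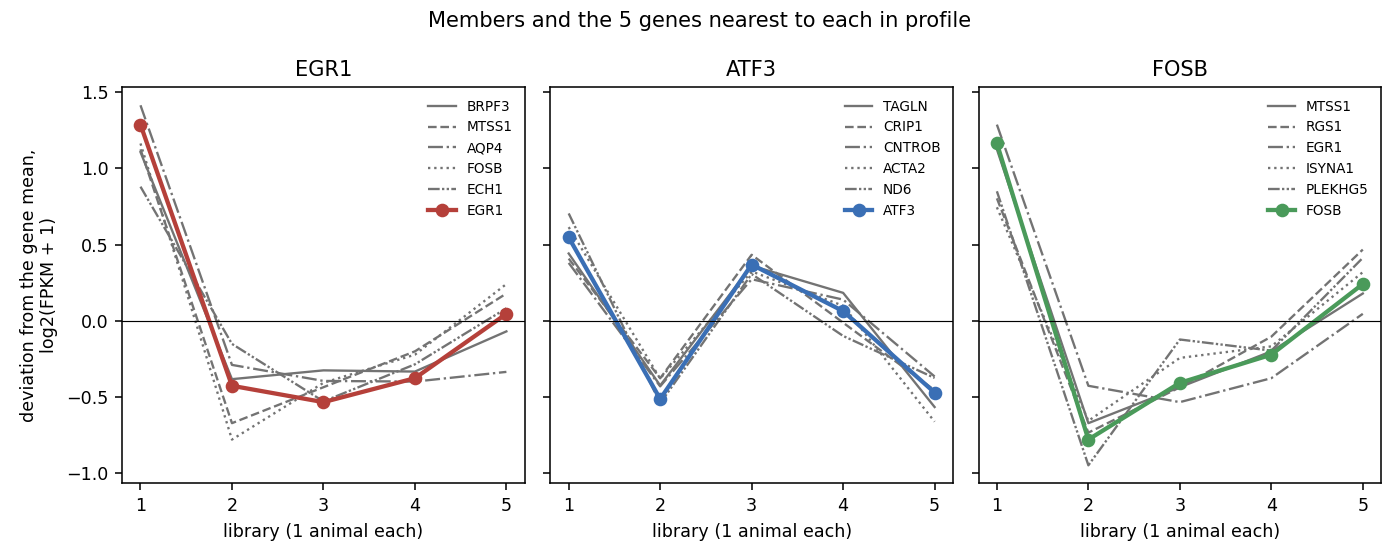
Deviation of log2(FPKM + 1) from the gene's own mean (vertical) in libraries 1 to 5 for EGR1, ATF3 and FOSB (coloured lines with points) and for the 5 detected genes nearest to each (grey lines). EGR1 and FOSB share a peak in library 1 and a smaller value above the mean in library 5, whereas ATF3 and its nearest genes, TAGLN and ACTA2 among them, are low in libraries 2 and 5.

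Neighbouring genes on the chromosomes did not share the pattern of EGR1. The nearest listed genes with a symbol were REEP2, 11.1 kb to one side, which averaged under 1 FPKM, and ETF1, a translation release factor, 30.8 kb to the other. ETF1 was at 7.19 FPKM in library 1, within its range of 6.62 to 9.26 in the other libraries. Beside FOSB, RTN2, a reticulon of the sarcoplasmic reticulum 6000 bases away, was lowest in library 1, at 92.6 FPKM against 109 to 136 elsewhere. CKM, the muscle creatine kinase gene 109 kb to the other side, was highest in library 1 at 35.5 FPKM and lowest in library 5 at 2.50, unlike FOSB. Next to ATF3 lay BATF3, another leucine zipper gene, which averaged 0.919 FPKM and was lowest in library 3, where ATF3 was second highest.

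Most further immediate-early genes were also highest in library 1, though by smaller margins than EGR1 and FOSB. Of 46 symbols on a list of such genes 14 had rows and 13 were detected. Library 1 was the highest for 9 of the 13, where the background over all detected genes is 24.4%, and lay above the gene mean for 11 of 13, where the background is 50.3%. The median log2 deviation of the 13 in library 1 was 0.40, against 0.00 for all detected genes. In library 4 it was -0.33, against 0.02, and 2 of 13 lay above their mean there, against 52.3% of all detected genes. With library 1 left out, library 5 was the highest of the remaining 4 for 4 of 13, against 22.8% of all detected genes. The highest library was 1.31 to 2.62 times the lowest over these genes, so in none of the 13 did it reach the 3.88 of EGR1.

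KLF6, a zinc finger factor of the injury response, led the list in level at 52.3, 29.5, 47.8, 30.8 and 51.2 FPKM in libraries 1 to 5, with libraries 1 and 5 nearly equal. CCN1 and CCN2, secreted matrix proteins that respond to serum and stretch, were highest in library 1 at 52.9 and 43.6 FPKM. CCN1 was lowest in library 3, at 23.4 FPKM, as EGR1 was. SGK1, a kinase gene induced by serum and glucocorticoids, was at 36.0 FPKM in library 1 and between 13.7 and 21.3 in the others. Its library 1 value was 1.69 times the next, the widest such margin on the list. NR4A1, an orphan nuclear receptor induced by exercise in muscle, was at 20.6, 16.8, 13.9, 13.1 and 13.6 FPKM. ZFP36, which encodes an RNA-binding protein that shortens the life of AU-rich messages, was at 18.2 FPKM in library 1 and 11.5 to 14.5 in the others.

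A few of these genes had another order, closer to that of ATF3 in 1 case. PPP1R15A, a stress gene that restores translation by dephosphorylating an initiation factor, had 17.6 FPKM in library 3, 16.0 in library 1 and 7.57 to 8.62 in libraries 2, 4 and 5. Like ATF3 it was high in libraries 1 and 3 and low in libraries 2 and 5, but library 4, where ATF3 was close to its mean, was the lowest for PPP1R15A. MYC, a growth regulator, reached 6.13 and 6.48 FPKM in libraries 3 and 5 but 3.20 to 3.35 in libraries 1, 2 and 4. KLF10, a TGF-beta inducible factor, was highest in library 3 at 37.7 FPKM and KLF4 in library 5 at 23.9. NR4A3 averaged under 1 FPKM. KLF6, NR4A1 and SGK1, 3 of the 13, lacked some transcript numbers in the table, so that their sums may be partial.

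**Figure D4:**
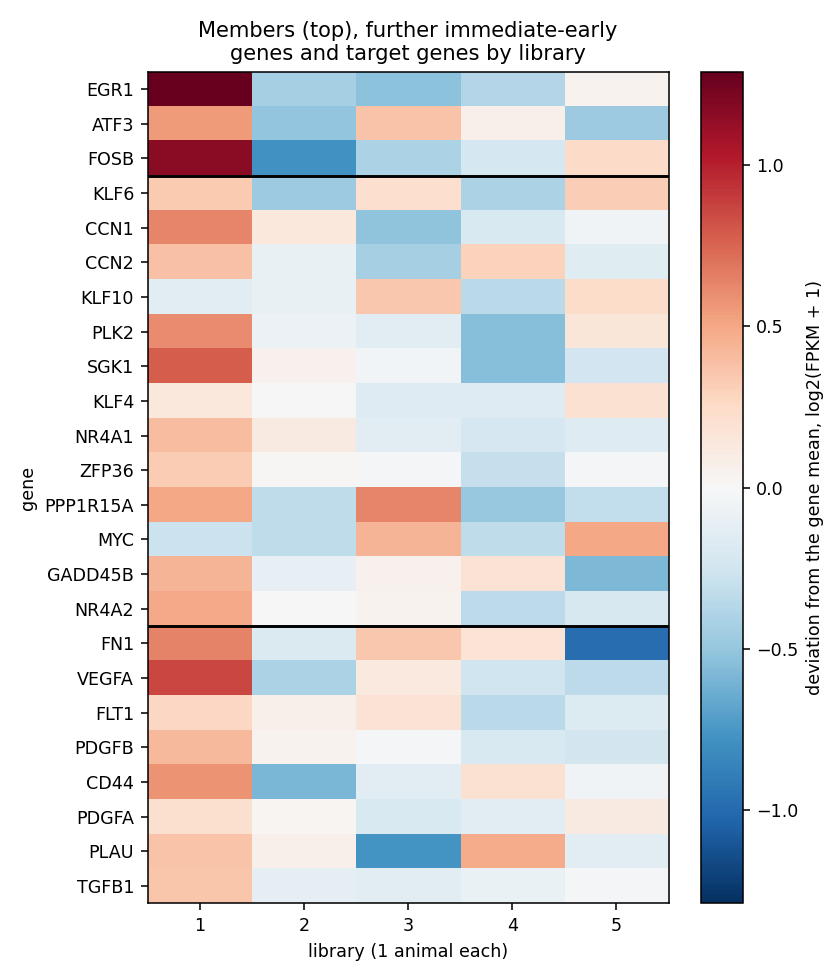
Deviation of log2(FPKM + 1) from each gene's mean (colour, red above and blue below) in libraries 1 to 5 for the 3 members, the 13 detected further immediate-early genes and the 8 detected target genes, in blocks parted by black lines and ordered by mean level in each block. The library 1 column is above the mean for 3 of 3 members, 11 of 13 further genes and 8 of 8 target genes, against 50.3% of all detected genes. A detected target gene that is not reported here is left out.

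Factors upstream of the members were highest in library 1 at a share near the background in FPKM. Of 19 symbols of transcription factors and coactivators upstream, 11 had rows and 9 were detected, and 2 of the 9 were highest in library 1, against 24.4% of all detected genes. Library 1 was above the gene mean for 6 of 9, against 50.3%. Such gaps in transcript numbering were found for 6 of the 9, ETS1, ELK4 and GABPA among them. ETS1, at 19.2 FPKM in library 1 and 8.14 in library 2, was 1 of them, and ELK4, the serum response factor partner, was even at 13.6 ± 1.33 FPKM (SD, n = 5). ETS2 was highest in library 5 at 33.7 FPKM and at 15.0 in library 1. GABPA was at 0.125 FPKM in library 2 and between 12.0 and 13.0 in the others. CREB1, which acts on these genes through cyclic AMP, was between 5.24 and 6.54 FPKM. Serum response factor itself was not analysed here.

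The MAP kinase genes carry growth factor and stress signals to those upstream factors. Of 25 symbols 18 had rows and 15 were detected, and library 1 was the highest for 1 of 15, EGFR, at 10.5 FPKM against 6.79 to 8.02 elsewhere. The background is 24.4%, and 5 of 15 were above their mean in library 1, against 50.3%. The count depended on the processing, being 3 of 15 in TPM, where the background is 33.1%, and 3 of 15 without library 4, where it is 28.1%. Transcript numbers were missing for 7 of the 15, including MAPKAPK2, RPS6KA3 and MAPK8. MAPKAPK2, a kinase downstream of p38, was the most abundant at 58.9 ± 7.29 FPKM (SD, n = 5), followed by RPS6KA3, at 42.2 ± 8.16, and MAP2K6, at 28.7 ± 3.54. MAPKAPK2 and MAP2K1, a kinase of the ERK branch, were lowest in library 1. MAPK8, which encodes a JNK kinase that phosphorylates JUN, was even at 6.17 ± 0.200 FPKM. The median log2 deviation of the 15 genes in library 1 was -0.16, against 0.00 for all detected genes.

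Partners and regulators of the members included both even and widely varying genes. Of 21 dimer partners of FOS and JUN proteins 10 had rows and 7 were detected, 0 of them highest in library 1, against 24.4% of all detected genes, and 1 of 7 without library 4. ATF2, which pairs with JUN, was at 16.1 ± 1.54 FPKM and NFE2L1 at 52.0 ± 4.96 (SD, n = 5). JDP2, a repressor that binds AP-1 sites, ran from 0.808 FPKM (library 2) to 4.58 (library 4). Of 16 corepressors and ligases 10 had rows, all detected. Library 1 was highest for 1 of the 10, against 24.4% of all detected genes. In TPM it was highest for 3 of 10, where the background is 33.1%. NAB1, a corepressor that binds EGR proteins, was at 16.3, 13.7, 13.4, 12.1 and 16.7 FPKM in libraries 1 to 5, so its 2 highest libraries were those of EGR1, within a range of far smaller width. COP1, a ubiquitin ligase that targets JUN and ETS factors, had 3.96 FPKM in library 1 and its highest value, 9.66, in library 4. FBXW7, a ubiquitin ligase subunit that targets JUN, varied most on that list, at 2.78, 0.264, 0.138, 7.23 and 5.15 FPKM in libraries 1 to 5. Of the 10 detected genes of AU-rich message decay 3 were highest in library 1, against 24.4% of all detected genes. XRN1, the main cytoplasmic exonuclease, was at 25.7 ± 0.877 FPKM. CNOT1, the scaffold of the deadenylase complex, was listed at 0 in libraries 1 and 3 and reached 3.41 FPKM in library 2, and ZFP36L1 ran from 0.596 FPKM in library 3 to 4.05 in library 5. COP1, FBXW7, CNOT1, ZFP36L1 and NFE2L1 lacked transcript numbers, so these sums may be partial too.

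Heat shock genes, another class of rapid stress response, included several that were lowest in library 1. Of 19 symbols 10 had rows and 7 were detected. Library 1 was the highest for 1 of the 7, against 24.4% of all detected genes. It was the lowest for 4 of the 7, against 1599 of the 6136 detected genes. The count highest in library 1 was 2 of 7 in TPM and without library 4, where the backgrounds are 33.1% and 28.1%. HSPA1A, the inducible HSP70 gene, was at 130 FPKM in library 1, its lowest, and 401 in library 4. HSPB1, HSPB8 and BAG3, small heat shock proteins of muscle and their co-chaperone, were also lowest in library 1. DDIT3, a leucine zipper gene of the unfolded protein response, was at 5.68, 7.94, 6.07, 8.95 and 5.30 FPKM.

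Genes known as targets of EGR1 or AP-1 were mostly highest in library 1. Of 20 symbols 9 had rows and 8 were detected, and 7 of 8 were highest there, against 24.4% of all detected genes, with a median log2 deviation of 0.39. These counts leave out a detected target gene, not reported here, that was not highest in library 1. The list was also chosen with earlier results of these data known. Of the 8, 5 lacked transcript numbers, TGFB1, PDGFA, FN1, PLAU and CD44, so their sums may be partial. VEGFA, the angiogenic growth factor, was at 43.6 FPKM in library 1 and 17.5 to 25.8 in the others. FN1, fibronectin, had 42.2 FPKM in library 1 and its lowest value, 13.1, in library 5, where EGR1 and FOSB were second highest. CD44, the hyaluronan receptor, was at 11.1 FPKM in library 1 and 4.40 to 8.29 elsewhere. TGFB1 was at 2.32 FPKM in library 1 and 1.35 to 1.58 in the others. Its libraries had the same order as those of EGR1, but libraries 2, 3 and 4 lay only between 1.35 and 1.45 FPKM. PLAU, the urokinase gene, was the exception and was highest in library 4. These genes respond to many factors, and the list does not measure the activity of EGR1 or AP-1.

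**Figure D5:**
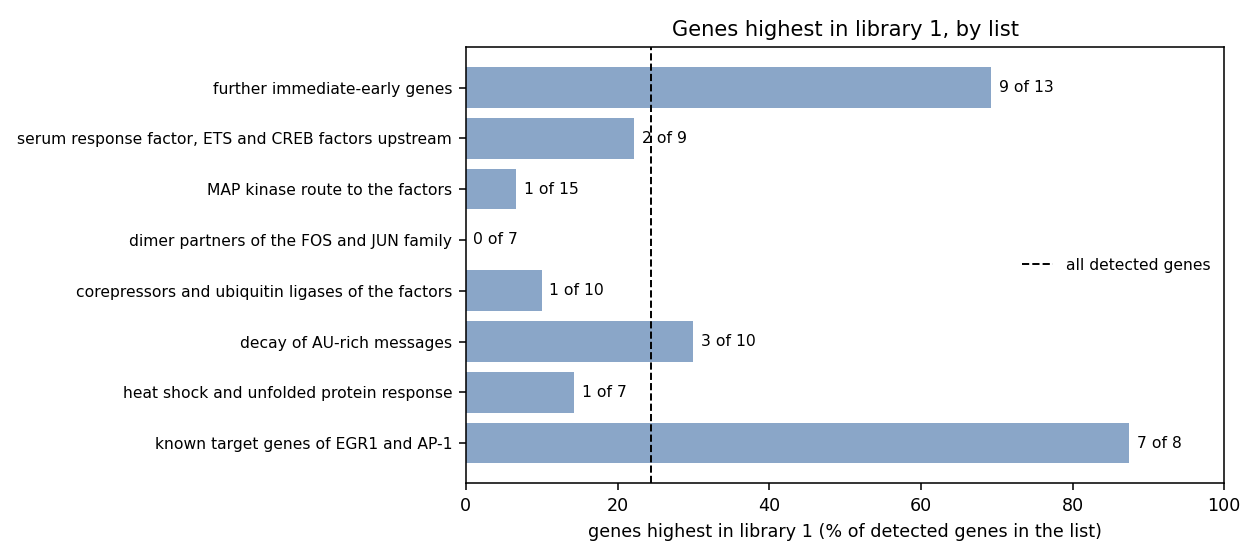
Share of the detected genes of each list that had their highest FPKM in library 1 (horizontal bars, percent, with counts beside them); the dashed line is the 24.4% of all 6136 detected genes. The lists of further immediate-early genes, 9 of 13, and target genes, 7 of 8, lie above the line, and the MAP kinase route, 1 of 15, and dimer partners, 0 of 7, below it. The target count leaves out a detected gene, not reported here, that was not highest in library 1.

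Markers of other cell types also differed between libraries, beside the members. Fibroblast markers, 3 of 6 with rows, summed to 845 FPKM in library 1 and to 394 in library 2, the lowest, and library 4, with 769, was nearly as high, although EGR1 and FOSB were below their means there. The sums were mostly collagen, with COL3A1 at 625 and COL1A2 at 193 FPKM in library 1. PDGFRA, the remaining marker, was at 25.9 FPKM in library 1, under its mean of 26.3, and highest in library 4 at 32.1. MYH11, a smooth muscle myosin, had 7.82 FPKM in library 1, and no other library was above 0.821. PDGFRA, MYH11 and ACTA2 lacked transcript numbers. The 7 of 8 endothelial markers with rows summed to between 103 and 117 FPKM in the 5 libraries, with 116 in library 1. Leukocyte markers had 2 of 7 with rows, which summed to 1.77 to 3.97 FPKM, highest in library 1, and PTPRC, the pan-leukocyte gene, was at 3.71 FPKM there and 1.45 to 3.41 elsewhere. MYF6, a late myogenic factor on the satellite cell list, was highest in library 1 at 6.48 FPKM. The part of these cell types in the EGR1 and FOSB values was not tested.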

How the data were processed

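Total RNA of 5 muscle libraries was measured, 1 per animal. The authors deposited FPKM per transcript and library, per the file headers. The submitters' processing notes name UMD3.1, HTSeq 0.6.0 and DESeq2 1.10.1 with no role; no aligner or FPKM program is named there. FPKM were summed per gene identifier here. Log2 values used FPKM + 1, and detection a mean of 1 FPKM. Depth was unknown, so no counting interval was given. Tests were a two-sided exact permutation test (sign flips of log2 ratios) of member pairs, and limma 3.58.1 in R 4.3.3, with Benjamini-Hochberg adjustment and 0.05 as the threshold. Other steps used scipy 1.17.1, pandas 2.3.3 and numpy 2.4.6 in Python 3.11.15, and figures matplotlib 3.10.9. p-values measure only the spread between these libraries, which limma pools over genes.

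In simulated data for 6136 genes at the level of EGR1, limma's fit called 100% of the 200 genes planted at 1 or 2 log2 units from EGR1 and 0.0505% of the others. Every simulated gene, EGR1 included, had independent normal noise with the median SD of detected genes, 0.25. The measured SD of EGR1 was 0.75 and enters every ratio to it, so these rates do not carry over to the measured data.

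The members and the 16 gene lists were chosen with earlier results of these data known. From the lists, 2 genes are not reported here and enter none of the list counts; 1 of them had been among the detected target genes and was not highest in library 1. The rule named every member, the 5 genes nearest to each, in each list the 4 of highest mean and 2 of greatest SD, and list genes with a library apart. CREB1, MAPK8, EGFR, NAB1, DDIT3, CD44, PLAU, PDGFA, RGS5, NR4A1, NR4A3, ZFP36, MYC, KLF4 and the chromosomal neighbours were named after values had been seen. Alternatives were a pseudocount of 0.1, detection limits of 5 FPKM and none, rescaling to TPM, median-ratio size factors, the transcript of highest mean alone, each library left out, and, added after seeing the data, the gap ratio on log2 values and the likeness without library 1 over unchanged candidates. No column was left unmapped. No sequences were used.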

Additional observations from a re-analysis of the deposited data

Results flagged for a closer look

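A library stood apart from the other 4, by a gap ratio on FPKM over 0.71, for EGR1, where the ratio was 0.805 for library 1 (28.1 FPKM against 7.24 to 11.3), and for the transcript FOSB-202, at 0.746 for library 1 (5.81 FPKM against 1.04 to 2.25). On the log2 scale these ratios were 0.682 and 0.613, under the limit.

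Of the genes named beside the members, library 1 stood apart above the others for ELK3 (0.888), TGFB1 (0.764), MYH11 (0.937), BRPF3 (0.866) and AQP4 (0.969). BRPF3 and AQP4 had been chosen for their likeness to EGR1, which favours this. Library 4 stood apart for MAP2K2 (0.78) and TTC37 (0.768), both at their highest there, and library 5 for MB (0.836), the myoglobin gene, at 766 FPKM against 106 to 214. Library 2 stood apart below the others for GABPA (0.923). ELK3 and MAP2K2 averaged under 1 FPKM, and ELK3, TGFB1, MYH11, TTC37, MB and GABPA lacked transcript numbers in the table. Genes of the lists were named because a library stood apart, so their number is not set against that of other genes. Chance marks about 1 in 20 groups of normal values.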

How the results depend on the processing

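Of 325 recomputed values 289 kept their side of the threshold or their size. Only the log2 ratios of the member pairs could change direction, and none did. Some values could not move, such as limma's log2 ratios and the levels of EGR1 and ATF3, which have a single transcript, with the main transcript alone. Rescaled to TPM, the means were 62.0 for EGR1, 27.4 for ATF3 and 21.1 for FOSB. The gap ratio of EGR1 was 0.682 on the log2 scale, and that of FOSB 0.746 with its main transcript alone. With that transcript FOSB averaged 2.56 FPKM, and all 3 pairs kept 1 direction in every library, against 2 with gene sums. In limma's test the log2 ratios 0.91 of EGR1 over ATF3 and 1.35 over FOSB passed the threshold (adjusted p = 0.00289 and 0.00148), which the exact test cannot reach with 5 animals. Those limma p-values rest on a spread pooled over ratios with a shared denominator, rather than on each pair's own spread alone. With a detection limit of 5 FPKM the genes lower than EGR1 and ATF3 numbered 147 and 13, and with no limit those lower than EGR1, ATF3 and FOSB numbered 5881, 4746 and 3733, against 2922, 1789 and 758, because fewer or more low genes were tested. FOSB lies under the limit of 5 FPKM and was not ranked there.

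Leaving out each library in turn, the highest over lowest ratio ran from 1.56 to 3.88 for EGR1 and from 2.62 to 5.49 for FOSB. The share of genes with a smaller SD ran from 57.6% to 94.7% for EGR1 and from 81.1% to 94.4% for FOSB. The lowest of these values came without library 1. The gap ratio ran from 0.767 to 0.955 for EGR1 and from 0.542 to 0.834 for FOSB, and 4 libraries require a higher ratio than 5 do. Under that limit EGR1 lost the call without library 1, 2 or 4, and FOSB gained one without library 5. Genes higher than EGR1 numbered 865 to 1844, most without library 1, and genes lower than FOSB 223 to 926; they numbered 466 without library 4 and 223 without library 5. The cause was not tested. Library 1 was highest for 10 of 13 further immediate-early genes and 8 of 8 target genes in TPM, where 33.1% of all detected genes were, and for 8 of 13 and 7 of 8 with size factors, where 21.5% were. Other lists changed by over 1.5 times. Upstream factors fell to 1 of 9 with size factors, where the background is 21.5%, and heat shock to 0 of 5 at 5 FPKM. Without library 2, MAP kinases changed to 2 of 15, dimer partners to 1 of 8 and corepressors to 2 of 10, where the background is 29.5%. Corepressors were also at 2 of 10 without library 5, where the background is 28.1%. The count of list genes highest in library 1 has no value without that library. No paired analysis was possible because the 5 libraries form 1 group.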
